A study of Homo sapiens with 54 samples.

Results

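The effect of 6 h of Torin1 was set against 6 h of the cytokine IL-10 in HepG2 cells, a line from a human hepatocellular carcinoma. The comparison takes 6 of the 54 RNA-seq libraries of the study. Of these, 3 came from cells given Torin1 at 1 µM and 3 from cells given IL-10 at 50 ng/mL, with the time equal. No group used here is labelled as given the solvent of Torin1 alone, so an effect of the solvent cannot be told apart from that of Torin1. Other groups used are Torin1 and IL-10 at 3 h in HepG2, and both at 6 h in HCT116, a colon cancer line. A negative control named NC was HepG2 cells given an equal volume of medium, with no time in the labels. HepG2 cells given the cytokine IL-6 or TNF-α for 3 h or 6 h entered the fits, and some of their means are quoted. IL-6 was given at the dose of IL-10, and TNF-α at a higher dose. The remaining HCT116 groups entered only the fit over both lines. Each group has 3 libraries. The labels enter HepG2 as a liver cancer stem cell, although it is an established hepatoma line. The 3 libraries of a group are called biological replicates with no word on separate cultures, so the p-values cover no more than the library-to-library spread, part of which may be technical. IL-10 is an agent and not a solvent. What Torin1 raised and what IL-10 lowered thus cannot be told apart from these 6 libraries alone. For many of the genes with the largest changes the difference from NC is given as well.

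Torin1 blocks the ATP site of mTOR, the kinase at the core of mTORC1, which drives protein, lipid and nucleotide synthesis, and of mTORC2, which activates AKT. In liver cells, AKT keeps the FOXO transcription factors out of the nucleus, and loss of that signal lets them switch on genes such as IGFBP1 and the genes of glucose output. mTORC1 is also known to support SREBP, the activator of sterol and fatty acid synthesis, and ATF4, the activator of amino acid supply, and to restrain TFEB, the activator of lysosome and autophagy genes. IL-10 signals through its receptor to STAT3, mainly in immune cells.

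The promoters of 3 genes with large changes are shown because they carry short matches to motifs known from these pathways, written in capitals. They are the 250 bases before the annotated start of each gene on the gene's strand, from RefSeq on GRCh38.p14. DEPP1 lies on the minus strand and its window is chr10:44978810-44979059, with the letters GTAAACA, the other strand's TGTTTAC and the core of a FOXO site, 180 to 174 bases before the start. HMGCS1 (minus strand, chr5:43313413-43313662) holds 2 CCAAT matches, the box read by the factor NF-Y that works beside SREBP, and MSMO1 (plus strand, chr4:165327419-165327668) holds 4, each written CCAAT or, on the other strand, ATTGG.
DEPP1: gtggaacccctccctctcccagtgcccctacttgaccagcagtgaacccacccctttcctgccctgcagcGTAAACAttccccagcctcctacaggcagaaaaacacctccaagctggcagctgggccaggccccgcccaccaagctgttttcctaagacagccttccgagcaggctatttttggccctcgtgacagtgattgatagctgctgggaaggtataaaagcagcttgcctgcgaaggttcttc
HMGCS1: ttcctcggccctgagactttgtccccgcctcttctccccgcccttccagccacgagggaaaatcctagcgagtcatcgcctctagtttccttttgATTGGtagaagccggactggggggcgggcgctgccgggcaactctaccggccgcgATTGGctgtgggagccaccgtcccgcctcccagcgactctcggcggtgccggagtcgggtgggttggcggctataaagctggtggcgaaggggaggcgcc
MSMO1: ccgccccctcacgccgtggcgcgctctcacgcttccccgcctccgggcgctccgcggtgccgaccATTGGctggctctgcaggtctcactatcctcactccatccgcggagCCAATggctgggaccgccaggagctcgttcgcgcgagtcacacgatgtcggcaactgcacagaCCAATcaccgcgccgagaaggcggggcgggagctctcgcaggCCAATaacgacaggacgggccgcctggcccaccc

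Reads on genes, counted in units of 1e6, numbered 54.2 to 65.8 in the Torin1 libraries and 54 to 68.7 in the IL-10 libraries. Genes encoded in mitochondria took 7.36 to 8.32% of them with Torin1 and 7.40 to 8.35% with IL-10. Hepatocyte genes were at the levels of a liver line, with ALB, or albumin, at 7920 to 8225 FPKM with Torin1 and 7990 to 8629 FPKM with IL-10 (FPKM, fragments scaled to gene length and library size). The sum over 18 such genes was 16516 to 17068 FPKM with Torin1 and 17053 to 17869 FPKM with IL-10. TDO2 was listed at 0 and APOB reached only 0.169 FPKM, and since FTH1, EIF4A1 and CRP also stood at 0 in all 27 HepG2 libraries, a listed 0 may reflect an estimate that failed. Among markers of other cells, all but 3 of 14 blood genes, 2 of 14 fibroblast and endothelial genes and 3 of 10 colon genes stayed under 1 FPKM in the 6 libraries, and PTPRC, COL1A2, DCN, KDR and CDX1 were listed at 0. Their sums were 1589 to 1701 against 1401 to 1409 FPKM for blood genes, nearly all of it LYZ, 6.96 to 7.81 against 6.95 to 8.31 FPKM for fibroblast and endothelial genes, and 97.1 to 100.5 against 83.5 to 86.3 FPKM for colon genes, of which LGR5 moved, each with Torin1 first and IL-10 second. The part of these few genes in the results was not tested. The 2 chains of the IL-10 receptor had values near 0, which may be estimates that failed, as for APOB, and say nothing firm about the receptor, with IL10RA at most 0.0117 FPKM with Torin1 and 0.00594 FPKM with IL-10, and IL10RB at most 0.0315 FPKM with Torin1 and 0.0467 FPKM with IL-10.

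Torin1 and IL-10 libraries differed in 6653 genes, or 59.0% of those tested. Of 11280 genes that reached 1 FPKM in 3 or more of the 27 HepG2 libraries, 3240 (28.7%) were called higher and 3413 (30.3%) were called lower than with IL-10, by limma on log2(FPKM + 1) at a Benjamini-Hochberg adjusted p under 0.05. Most of the differences were small. A change of at least 2-fold on that scale was called for 108 genes higher (0.957%) and 39 lower (0.346%), and the median difference of all genes was −0.014. With a pseudocount of 0.1 in place of 1, these counts were 212 and 100. The 6 libraries fell into groups that did not overlap for 7393 genes (65.5%). Fold changes on this scale understate the change of genes with low FPKM. At the edge of the filter, 157 genes passed with exactly 3 libraries at 1 FPKM (median of their highest library, 1.34 FPKM) and 200 missed it with 2 (1.24 FPKM). RNA of a whole culture cannot tell fewer cells of a state apart from less RNA per cell.

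Torin1 against NC had 2948 genes called higher (26.1%) and 3808 called lower (33.8%), 59.9% in all, with 97 (0.860%) and 39 (0.346%) of them changed at least 2-fold. IL-10 at 6 h against NC had 212 called higher (1.88%) and 1105 called lower (9.80%), 11.7% in all, with 4 genes (0.0355%) higher and 0 lower by at least 2-fold. Without 1 library at a time the IL-10 counts were 57 to 160 and 499 to 885, both lowest without NC replicate 2. These 3 contrasts share libraries, so they are given side by side and not compared with each other.

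**Figure D1:**
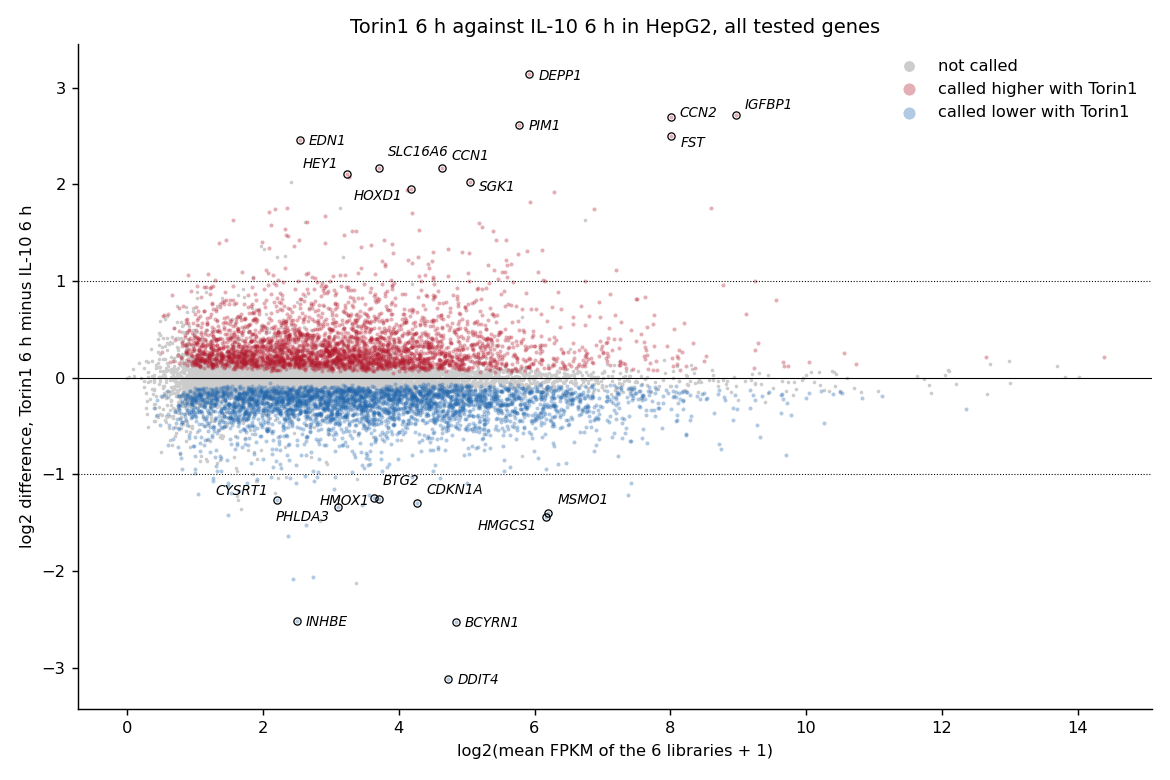
Each point is a tested gene, with the log2 of its mean FPKM over the 6 libraries plus 1 on the x axis and the log2 difference, Torin1 6 h minus IL-10 6 h, on the y axis; red and blue mark genes called higher and lower, grey marks the rest, and dotted lines mark a 2-fold change. DEPP1 (3.14), IGFBP1 (2.72) and CCN2 (2.70) stand highest of the circled genes and DDIT4 (−3.11), BCYRN1 (−2.52) and INHBE (−2.51) lowest.

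Of the 4 genes that mark the Torin1 response in this line, 2 rose and 2 fell. DEPP1, a FOXO-induced regulator of autophagy and of oxidant defence (chr10:44976128-44978809, gene ID 11067), had 105, 105 and 114 FPKM in the Torin1 libraries, against 13, 10.4 and 10.8 FPKM in the IL-10 libraries. IGFBP1, a hepatic binding protein for insulin-like growth factors and a classical insulin-repressed gene (chr7:45888488-45893660, gene ID 3484), had 833, 858 and 901 FPKM with Torin1, against 139, 136 and 117 FPKM with IL-10. All 3 Torin1 libraries of both genes lay far above the 3 IL-10 libraries. The difference was 3.14 ± 0.10 for DEPP1 (log2 ± SE, limma, adjusted p = 2.76e-16) and 2.72 ± 0.09 for IGFBP1 (adjusted p = 3.93e-16), and against NC it was 2.78 for DEPP1 and 2.79 for IGFBP1. At 6 h, IGFBP1 averaged 295 FPKM with IL-6, 202 FPKM with TNF-α and 131 FPKM with IL-10. In the same groups DEPP1 averaged 22.8, 21.4 and 11.4 FPKM, so both genes were also above IL-10 with the other 2 cytokines. DEPP1 overlaps RASSF4, and no source used here gives the strand setting of the counting, so reads of overlapping genes cannot be told apart. The other overlaps named below carry the same limit.

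DDIT4, known as REDD1, an inhibitor of mTORC1 that is induced by stress through ATF4 and HIF1 (chr10:72273924-72276036, gene ID 54541), had 4.82, 4.41 and 4.26 FPKM with Torin1, against 46.5, 44.7 and 48.5 FPKM with IL-10. INHBE, the inhibin beta E chain, a liver hormone and ATF4 target (chr12:57455307-57458025, gene ID 83729), had 0.625, 0.782 and 0.655 FPKM with Torin1, against 9.35, 8.51 and 8.07 FPKM with IL-10. For both genes the groups were separate, as they were for 65.5% of all genes. The INHBE level with Torin1 was below 1 FPKM in all 3 libraries. The differences were −3.11 ± 0.06 for DDIT4 (limma, adjusted p = 2.60e-20) and −2.51 ± 0.06 for INHBE (adjusted p = 9.80e-18), and Torin1 against NC gave −2.96 and −2.42. With IL-10 set against NC, the limma test was not passed for IGFBP1 (0.07, adjusted p = 0.689), DDIT4 (0.16, adjusted p = 0.0716) or INHBE (0.10, adjusted p = 0.347), while DEPP1 was lower with IL-10 than in NC (−0.36, adjusted p = 0.0221).

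**Figure D2:**
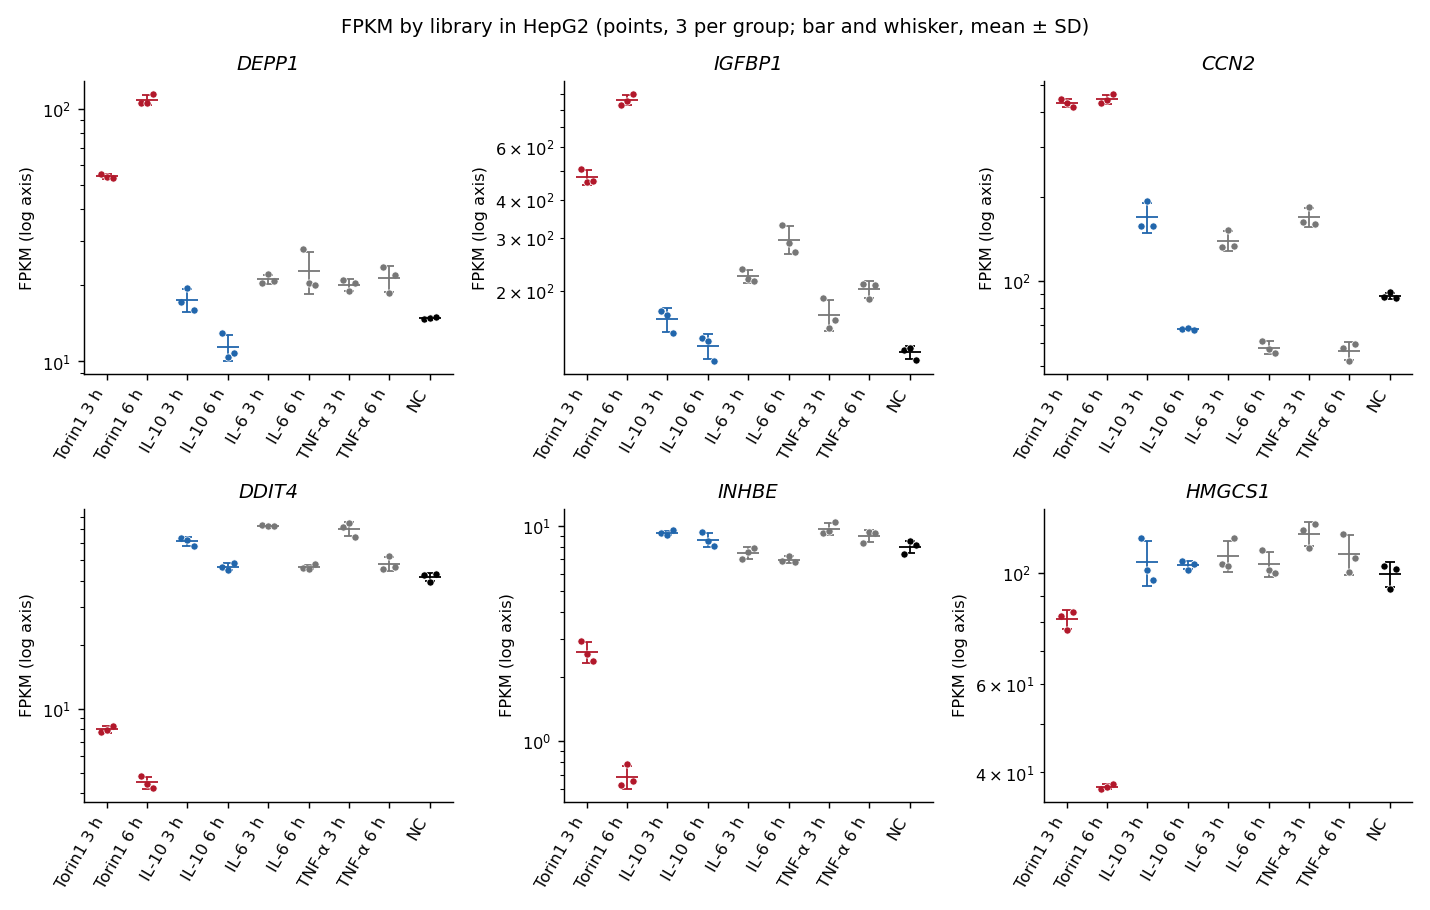
FPKM of 6 genes in each of the 27 HepG2 libraries on a log axis, with 3 points per group and the mean ± SD as bar and whisker; groups run along the x axis with Torin1 in red, IL-10 in blue, IL-6 and TNF-α in grey and NC in black. The Torin1 6 h points of DEPP1, IGFBP1 and CCN2 lie above those of every other group except Torin1 3 h for CCN2, and those of DDIT4, INHBE and HMGCS1 below.

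The genes with the largest rises and falls were named only if their groups were separate, as they were for 65.5% of all genes, so their separation is a description. CCN2, a matrix protein also known as CTGF and a YAP target (chr6:131948176-131951372), had 432, 440 and 463 FPKM with Torin1, against 67.7, 68.3 and 66.9 FPKM with IL-10. Its relative CCN1, or CYR61, had 36.4, 43.4 and 39.4 FPKM with Torin1, against 8.33, 8.94 and 6.86 FPKM with IL-10. FST, the activin antagonist follistatin, had 422, 448 and 446 FPKM with Torin1, against 76.2, 79.9 and 74.1 FPKM with IL-10. Each of the 3 genes was several-fold higher in all Torin1 libraries, and the log2 differences were 2.70 ± 0.07 for CCN2, 2.17 ± 0.15 for CCN1 and 2.50 ± 0.10 for FST. The endothelin precursor EDN1 had 8.01, 9.81 and 8.77 FPKM with Torin1, against 0.798, 0.948 and 0.618 FPKM with IL-10 (2.46 ± 0.08, and 2.26 against NC). CCN2 and FST were called lower with IL-10 than in NC (−0.39 and −0.40), CCN1 was not (−0.39, limma adjusted p = 0.0888), and against NC the 3 genes stood 2.31, 2.10 and 1.78 higher with Torin1. CCN2 shares its locus with the antisense RNA CCN2-AS1.

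PIM1, SGK1 and HEY1 were also among the 12 largest rises. PIM1, a serine kinase and STAT target, had 90.4, 95.2 and 93.9 FPKM with Torin1, against 14.5, 14.2 and 14.2 FPKM with IL-10 (2.62 ± 0.04). SGK1, a kinase of the AKT family that mTORC2 activates, had 50.6, 53.7 and 52.5 FPKM with Torin1, against 11.4, 13.1 and 11.7 FPKM with IL-10 (2.03 ± 0.11). HEY1, a Notch target and repressor, had 14.8, 13.5 and 14.7 FPKM with Torin1, against 2.58, 2.61 and 2.46 FPKM with IL-10 (2.11 ± 0.05). Torin1 against NC gave 2.43 for PIM1 and 2.00 for HEY1, and for all 3 genes the Torin1 libraries lay above the IL-10 libraries. SGK1 was 0.61 lower on the log2 scale with IL-10 than in NC, and its rise against NC was 1.41. With TNF-α, SGK1 averaged 58.9 FPKM at 3 h and 45.5 FPKM at 6 h. SLC16A6, whose zebrafish counterpart exports ketone bodies from the liver, stood 2.17 higher and the homeobox gene HOXD1 1.95 higher, and these overlap ARSG and HAGLR. Against NC, SLC16A6 stood 2.11 and HOXD1 1.56 higher, and HOXD1 was 0.39 lower with IL-10 than in NC. MIR635 was called 2.08 higher, but it lies inside PRKAR1A, WIPI1 and ARSG, and its reads cannot be told from theirs.

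In this and the following lists, 28.7% of all genes called higher, 30.3% called lower and a median of −0.014 are the values to read a list against. The lists were written with earlier results of these data known, so their shares are descriptions. The FOXO list holds the markers DEPP1 and IGFBP1, and the ATF4 list below holds DDIT4 and INHBE. Most tested targets of FOXO were higher with Torin1. Of 30 genes listed, 24 were tested, and 19 were called higher and 3 lower, a share of 79.2% higher beside 28.7% of all genes, with a median log2 difference of 0.92 beside −0.014 for all genes. Against NC the same counts were 19 and 3. CCNG2, a cyclin that slows the cycle, had 5.12, 5.46 and 6.06 FPKM with Torin1, against 0.960, 0.940 and 1.06 FPKM with IL-10 (1.72 ± 0.07). KLHL24, an adaptor of a ubiquitin ligase, had 3.47, 3.31 and 3.61 FPKM with Torin1, against 0.403, 0.513 and 0.403 FPKM with IL-10, a log2 difference of 1.63 that became 2.73 with a pseudocount of 0.1. Both genes kept the groups apart in every library, as did 65.5% of all genes. Of the 11 tested genes of insulin-repressed glucose output, 6 were higher and 1 was lower. PPARGC1A, the coactivator of fasting metabolism, had 5.71, 5.80 and 6.31 FPKM with Torin1, against 1.13, 1.06 and 1.01 FPKM with IL-10 (1.75 ± 0.05). G6PC1, the glucose-6-phosphatase that frees glucose from the liver cell, had 6.69, 6.48 and 6.27 FPKM with Torin1, against 1.71, 1.37 and 1.64 FPKM with IL-10 (1.54 ± 0.09). The letters TGTTTAC shown in DEPP1 stood in the promoter windows of 3 of the 20 FOXO members with a window (15%), beside 1.99% of 8559 tested genes and 2.98% of all 27305 windows, and the related CAAAACA in 2 of 20 (10%) beside 2.76% of tested genes and 4.34% of all windows. Motifs were sought on both strands, and a match is not evidence of binding.

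Genes that carry the insulin signal itself were higher with Torin1 in 11 of 18 cases (61.1%, beside 28.7% of all genes) and lower in 4 (22.2%, beside 30.3%), with a median of 0.38. IRS2, the adaptor of the insulin receptor, had 2.08, 1.98 and 2.18 FPKM with Torin1, against 0.579, 0.436 and 0.393 FPKM with IL-10 (1.07, and 1.95 with a pseudocount of 0.1). The p110α subunit gene PIK3CA rose by 0.70 and PHLPP1, a phosphatase that turns AKT off, by 0.71. PIK3IP1, an inhibitor of PI3K, rose by 0.95 and FOXO1 by 0.94, values that became 1.44 and 1.68 with the smaller pseudocount. Among genes of the mTOR complexes and their nutrient sensors, 15 of 38 were higher and 16 lower. RICTOR, the defining subunit of mTORC2, had 11.7, 11.3 and 11.5 FPKM with Torin1, against 5.59, 5.59 and 5.39 FPKM with IL-10 (0.94 ± 0.05), and its partner gene PRR5 fell by 0.75. RICTOR overlaps OSMR. The median of this list was −0.003, and its sign turned with the scaling between libraries.

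**Figure D3:**
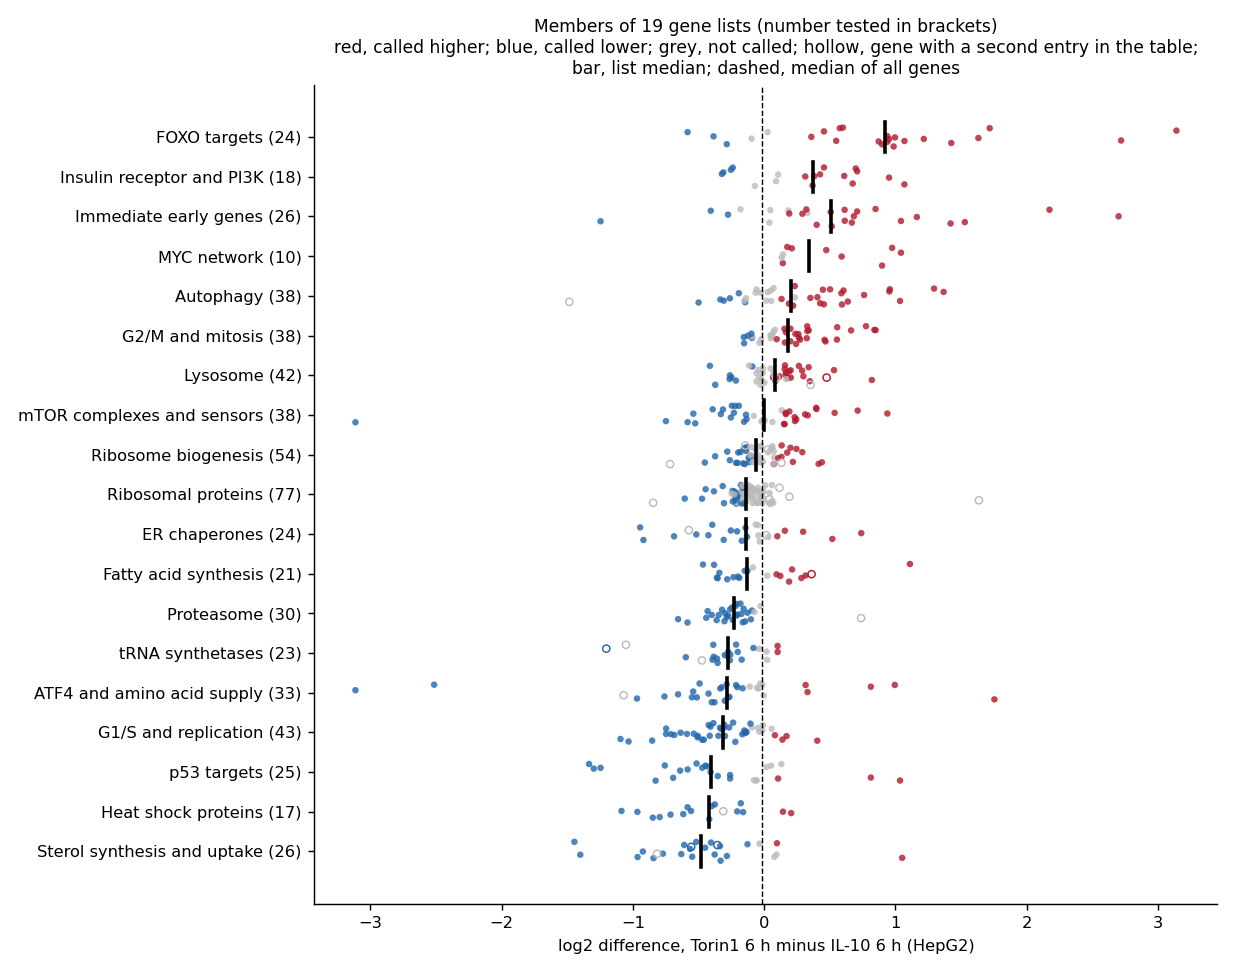
Each point is a tested member of one of 19 gene lists, placed by its log2 difference, Torin1 6 h minus IL-10 6 h; red and blue points were called higher and lower, grey points were not called, hollow points have a second entry in the table, and bars mark list medians. The FOXO list has the highest median (0.92) and the sterol list the lowest (−0.48), and the dashed line marks the median of all genes (−0.014).

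Most genes of sterol synthesis were lower with Torin1. Of 26 tested genes, 20 were called lower and 2 higher, 76.9% lower beside 30.3% of all genes, with a median of −0.48. Against NC, 20 were lower and 1 higher. HMGCS1, the synthase that makes HMG-CoA at the start of the pathway, had 37.1, 37.5 and 37.9 FPKM with Torin1, against 106, 102 and 104 FPKM with IL-10. MSMO1, a methyl sterol oxidase late in the pathway, had 38.7, 39.5 and 40.0 FPKM with Torin1, against 107, 103 and 107 FPKM with IL-10. The spread within each group was a few FPKM and the groups were far apart, with differences of −1.45 ± 0.07 for HMGCS1 (limma, adjusted p = 2.39e-13) and −1.40 ± 0.06 for MSMO1 (adjusted p = 8.38e-14). Torin1 against NC gave −1.38 and −1.42. The mevalonate kinase gene MVK fell by 0.96 and IDI1, the isomerase of isopentenyl diphosphate, by 0.92, and these overlap MMAB and WDR37 with IDI2-AS1. CCAAT stood in 15 of the 19 sterol promoter windows (78.9%), beside 36.0% of tested genes and 33.0% of all windows, and the SREBP element TCACCCCAC in 1 (5.26%), beside 0.304% of tested genes and 0.348% of all windows.

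Fatty acid genes were mixed, with 8 of 21 higher and 11 lower. FASN, the fatty acid synthase, fell by 0.47 and the desaturase gene FADS2, which overlaps FADS1, by 0.38, while ACSL3, which activates long-chain fatty acids, had 194, 198 and 206 FPKM with Torin1, against 91.2, 90.6 and 93.1 FPKM with IL-10 (1.11 ± 0.04). Of 30 glycolysis and HIF1 genes, 6 were higher and 16 lower. The 6 included the glucose transporter gene SLC2A1 (0.99), hexokinase HK2 (0.93) and NDRG1, a stress-responsive gene (0.87). ADM, which encodes the vasodilator adrenomedullin and is a HIF1 target, fell by 0.74. Genes of the pentose phosphate and nucleotide pathways were lower in 16 of 29 cases and higher in 2, with PRPS1, which makes the ribose donor of nucleotides, at −0.29.

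Genes of the ATF4 program and amino acid supply were lower in 21 of 33 cases and higher in 5, with a median of −0.28. SLC38A2, a transporter of neutral amino acids, was the main exception, with 583, 601 and 610 FPKM with Torin1, against 175, 180 and 175 FPKM with IL-10. Its groups were far apart (1.75 ± 0.04, and 1.37 against NC), and PPP1R15A, or GADD34, which reverses the phosphorylation of eIF2α, rose by 1.00. SLC38A2 was 0.38 lower with IL-10 than in NC. Of 23 tRNA synthetase genes, 16 were lower and 2 higher, with a median of −0.27. YARS1, which overlaps S100PBP, fell by 0.60, TARS1 by 0.39 and FARSA by 0.39, the synthetases for tyrosine, threonine and a chain of that for phenylalanine.

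Of 17 heat shock genes, 14 were lower (82.4%, beside 30.3% of all genes) and 2 higher, with a median of −0.42. The HSP40 cochaperone gene DNAJA1 had 106, 111 and 107 FPKM with Torin1, against 232, 230 and 231 FPKM with IL-10 (−1.09 ± 0.03). DNAJB1, another HSP40 gene that overlaps TECR, fell by 0.97 and HSPA8, the constitutive HSP70, by 0.80. HSPA8 hosts the small nucleolar RNAs SNORD14C (−1.53) and SNORD14E (−1.31), whose reads cannot be told from its own. Of 30 proteasome genes, 27 were lower and 0 higher at the threshold, with PSMA6 at −0.66 and PSMA4 at −0.58, both alpha ring subunits. ER chaperone genes were lower in 12 of 24 cases and higher in 5. MANF, a secreted ER stress protein, fell by 0.94 and SDF2L1, a partner of the chaperone BiP, by 0.92, while ERN1, the stress sensor IRE1α, rose by 0.74.

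Of 38 autophagy genes, 20 were called higher (52.6%, beside 28.7% of all genes) and 6 lower (15.8%, beside 30.3%), with a median of 0.21. WIPI1, which binds the growing autophagosome membrane, had 6.82, 6.57 and 7.31 FPKM with Torin1, against 2.08, 1.98 and 2.12 FPKM with IL-10 (1.37 ± 0.06), and it overlaps ARSG and PRKAR1A. NBR1, a receptor for ubiquitin-tagged cargo, had 43.9, 45.6 and 46.6 FPKM with Torin1, against 17.8, 17.7 and 18.1 FPKM with IL-10 (1.30 ± 0.04). Both were separate in every library, as were 65.5% of all genes. ATG2A, a lipid carrier to the autophagosome, rose by 0.96. Of 42 lysosome genes, 19 were higher and 7 lower, with a median of 0.08. NPC1, the cholesterol exporter of the lysosome, rose by 0.82 and the chloride exchanger gene CLCN7 by 0.53, and ATP6V0E1, a proton pump subunit, fell by 0.41. The TFEB motif TCACGTGA stood in 5 of 26 lysosome windows (19.2%), beside 1.83% of tested genes and 0.89% of all windows, and in 0 of 33 autophagy windows.

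Genes of the protein synthesis machinery were called lower about as often as all genes. Of 77 ribosomal protein genes, 24 were lower (31.2%, beside 30.3% of all genes) and 0 higher at the threshold (beside 28.7%), with a median of −0.13. Against NC, 8 were lower and 0 higher with Torin1. With IL-10 set against NC, 6 of these genes were called higher and 0 lower, beside 1.88% and 9.80% of all genes. RPS26 had 132, 129 and 128 FPKM with Torin1, against 179, 177 and 185 FPKM with IL-10 (−0.47 ± 0.05). Ribosome biogenesis genes were higher in 11 of 54 cases (20.4%) and lower in 17 (31.5%), with a median of −0.06 and a range of single genes that took in the assembly factor MRTO4 (−0.45) and NOB1, which trims the small subunit RNA (0.42). Of 38 translation factor genes, 11 were higher (28.9%) and 12 lower (31.6%), near the shares of all genes (28.7% and 30.3%). EIF1, which guards the choice of start codon, rose by 0.65, EIF3A by 0.40 and the elongation factor EEF2 by 0.36.

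Of 10 tested genes of the MYC network, 8 were higher and 0 lower at the threshold and 2 did not pass, with a median of 0.34. MYC had 62.9, 65.6 and 63.7 FPKM with Torin1, against 32.6, 30.4 and 28.9 FPKM with IL-10 (1.04 ± 0.05). The antagonists MXI1 and MNT rose by 0.90 and 0.59, MNT by 0.87 with a pseudocount of 0.1, and MYCN, which overlaps MYCNOS, by 0.98. For all 4 genes every Torin1 library lay above every IL-10 library, and the groups were separate for 65.5% of all genes.

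Genes of early and late phases of the cell cycle moved apart. Of 43 genes of G1/S and replication, 33 were lower and 4 higher, with a median of −0.31. CDC6, which loads the replicative helicase, had 19.1, 20.5 and 18.9 FPKM with Torin1, against 42.2, 42.7 and 43.3 FPKM with IL-10 (−1.09 ± 0.03), and UHRF1, which guides maintenance DNA methylation, fell by 1.03. Of 38 genes of G2/M and mitosis, 23 were higher and 5 lower, with a median of 0.18. The centrosomal kinase gene NEK2 had 26.8, 29.5 and 28.8 FPKM with Torin1, against 15.1, 15.4 and 15.7 FPKM with IL-10 (0.84 ± 0.04), and CENPF, a kinetochore protein, rose by 0.85 with a wider SE of 0.20. Targets of p53 were lower in 16 of 25 cases and higher in 3. The inhibitor CDKN1A, or p21, had 9.80, 10.2 and 10.5 FPKM with Torin1, against 26.8, 27 and 25.6 FPKM with IL-10 (−1.30 ± 0.07), and it overlaps the noncoding RNA DINOL. PHLDA3, a p53-induced repressor of AKT, fell by 1.33, while TP53INP1, which overlaps NDUFAF6, rose by 1.04. The antiproliferative gene BTG2 fell to 6.12, 7.02 and 5.97 FPKM with Torin1, against 17.1, 16.5 and 15.7 FPKM with IL-10. Torin1 against NC gave −1.48 for CDKN1A, −1.38 for PHLDA3 and −1.21 for BTG2.

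Immediate early and growth factor response genes were higher in 18 of 26 cases (69.2%, beside 28.7% of all genes) and lower in 3, with a median of 0.51, and against NC 20 were higher and 4 lower. Besides CCN2 and CCN1, SPRY4, a feedback inhibitor of receptor kinases, had 27.2, 28.2 and 29.0 FPKM with Torin1, against 9.58, 9.27 and 8.47 FPKM with IL-10 (1.53 ± 0.07). DUSP6, the phosphatase that turns ERK off, had 59.6, 62.5 and 63.2 FPKM with Torin1, against 22.8, 22.3 and 22.3 FPKM with IL-10 (1.42 ± 0.05). The groups of both genes were separate, as they were for 65.5% of all genes, and DUSP6 was also 1.30 higher than in NC. SPRY4 overlaps SPRY4-IT1, and DUSP6 the readthrough gene POC1B-DUSP6. KLF6, a zinc finger factor, rose by 1.16 against IL-10 and 0.80 against NC, and was 0.37 lower with IL-10 than in NC. ERRFI1, which inhibits the EGF receptor, rose by 1.75, with 174, 185 and 182 FPKM with Torin1 and 53.4, 54.3 and 51.5 FPKM with IL-10.

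TIMP1, TIMP2, the MMPs and EGF, inhibitors and proteases of the matrix and a growth factor, are the genes that the study's design names. Of 33 such genes and EGF family members, 22 did not pass the filter, with EGF itself at most 0.00518 FPKM in the 6 libraries and EGFR at most 0.831 FPKM. Of the 11 tested, 7 were called higher (63.6%, beside 28.7% of all genes) and 0 lower (beside 30.3%). ERBB3, a receptor of the EGF family that FOXO factors are known to induce, had 63.3, 66.6 and 67.5 FPKM with Torin1, against 27.4, 27.7 and 28.1 FPKM with IL-10 (1.22 ± 0.03). The ligand genes HBEGF, TGFA and AREG stood 0.73, 0.48 and 0.26 higher, TIMP3, which lies within SYN3, 0.39 higher, MMP3 0.28 higher and ERBB2 0.11 higher. TIMP1 had 12.4, 13 and 11.6 FPKM with Torin1, against 15.1, 12.5 and 14.4 FPKM with IL-10. TIMP1 lies within SYN1. Its groups overlapped and the difference of −0.17 ± 0.08 did not pass the test (limma, adjusted p = 0.0919), but without IL-10 replicate 2 it was −0.24 and did (adjusted p = 0.0272). TIMP2 (0.07 ± 0.06), MMP14 (−0.05 ± 0.06) and MMP15 (0.04 ± 0.05) did not pass, and each had overlapping groups. MMP14 passed against NC (−0.16, limma adjusted p = 0.0168). The calls of AREG and ERBB2 were lost against NC (0.16 and 0.06) and in 1 or more fits without a single library, AREG without Torin1 replicate 2 (0.20), ERBB2 without IL-10 replicate 2 (0.080) or Torin1 replicate 1 (0.087), and that of MMP3 was lost without Torin1 replicate 1 (0.23) or 2 (0.22).

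Liver functions changed gene by gene. Of 13 bile acid and detoxification genes, 5 were higher and 6 lower. NR0B2, or SHP, a repressor of bile acid synthesis, had 81.2, 84.0 and 86.4 FPKM with Torin1, against 33.2, 32.3 and 33.9 FPKM with IL-10 (1.31 ± 0.06), and it overlaps NUDC. CYP7A1, the rate-limiting enzyme of bile acid synthesis, had 0.529, 0.634 and 0.485 FPKM with Torin1, against 2.15, 2.04 and 2.56 FPKM with IL-10 (−1.07, and −1.86 with a pseudocount of 0.1). The groups of both were separate, as they were for 65.5% of all genes. Of 11 apolipoprotein and lipase regulator genes, 7 were lower and 0 higher at the threshold, and 4 of them were called higher with IL-10 than in NC. APOC3, an inhibitor of triglyceride clearance, had 57.4, 64.3 and 55.2 FPKM with Torin1, against 99.5, 87.7 and 95.8 FPKM with IL-10 (−0.67 ± 0.09), and its difference from NC was −0.33. ANGPTL8, an insulin-induced lipase inhibitor that overlaps DOCK6, stood at −0.93 against IL-10 and −0.41 against NC. FABP1, the liver fatty acid binding protein, fell by 0.74 against IL-10, while its difference from NC did not pass (−0.10, limma adjusted p = 0.358). It was 0.63 higher with IL-10 than in NC.

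Acute phase genes were higher in 6 of 17 cases and lower in 2, interferon response genes higher in 3 of 16 and lower in 5, and STAT3 targets, PIM1 among them, higher in 8 of 21 and lower in 6. The lower shares of the interferon and STAT3 lists, 31.2% and 28.6%, were near the 30.3% of all genes. MCL1, which protects from apoptosis, rose by 0.63 and the receptor gene IL6R by 0.60. The ubiquitin-like modifier ISG15 fell by 0.70 and USP18, which removes it, by 0.64. HP, the haemoglobin binder haptoglobin, fell by 0.57. BCYRN1, a short noncoding RNA transcribed by RNA polymerase III, fell by 2.52, with 6.20, 9.01 and 7.15 FPKM with Torin1 and 57.8, 47.8 and 37.8 FPKM with IL-10. Its mean in NC was 11.3 FPKM. The difference between Torin1 and NC did not pass the limma test (−0.55, adjusted p = 0.0882), and it was 1.98 higher with IL-10 than in NC. BCYRN1 overlaps EPCAM-DT.

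The 6 h difference was larger than the 3 h difference for many of these genes, which the change in the difference between the times tests directly. At 3 h, 2427 genes were called higher with Torin1 than with IL-10 (21.5%) and 2704 lower (24.0%), 45.5% in all, with 36 (0.319%) and 14 (0.124%) of them changed at least 2-fold. The change between the times was called for 1336 genes upward (11.8%) and 1027 downward (9.10%), 20.9% in all, with 17 (0.151%) and 4 (0.0355%) at least 2-fold, and with each library scaled to the same FPKM total these counts were 832 and 1371. The sterol list had 17 of 26 members called downward and 1 upward, with a median difference of −0.04 at 3 h and −0.48 at 6 h. HMGCS1 averaged 80.9 ± 3.49 FPKM in Torin1 and 105 ± 10.9 FPKM in IL-10 libraries at 3 h, and 37.5 ± 0.363 FPKM in Torin1 and 104 ± 1.95 FPKM in IL-10 libraries at 6 h (SD, n = 3). Its difference moved by −1.07 ± 0.10 on the log2 scale. The level with IL-10 differed between the times by less than its spread, and the level with Torin1 was lower at 6 h. IDI1 had a difference of 0.00 at 3 h and −0.92 at 6 h. Markers of the Torin1 response kept moving as well, DEPP1 by 1.57, IGFBP1 by 1.15 and DDIT4 by −0.32, and INHBE stood at −1.52 at 3 h and −2.51 at 6 h.

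Immediate early genes moved upward in 19 of 26 cases and downward in 1, beside 11.8% and 9.10% of all genes, with a median difference of 0.11 at 3 h and 0.51 at 6 h. CCN2 averaged 431 ± 14.7 FPKM in Torin1 and 169 ± 20.5 FPKM in IL-10 libraries at 3 h, and 445 ± 15.8 FPKM in Torin1 and 67.6 ± 0.681 FPKM in IL-10 libraries at 6 h (SD, n = 3). CCN1 averaged 39.3 ± 5.31 FPKM in Torin1 and 28.1 ± 5.48 FPKM in IL-10 libraries at 3 h, and 39.7 ± 3.47 FPKM in Torin1 and 8.05 ± 1.07 FPKM in IL-10 libraries at 6 h. For both genes the Torin1 level differed between the times by no more than its spread, and the IL-10 level was lower at 6 h. At 6 h the CCN2 mean was also low with IL-6 (58.0 FPKM) and TNF-α (56.5 FPKM). At 3 h it was 140 FPKM with IL-6 and 169 FPKM with TNF-α, beside 88.7 FPKM in NC. The CCN1 mean at 3 h was 36.3 FPKM with IL-6 and 34.2 FPKM with TNF-α, beside 10.8 FPKM in NC. So at 3 h both genes were above NC with IL-10 and with the other 2 cytokines. ANKRD1, a stress-induced ankyrin repeat protein and YAP target, averaged 136 ± 14.1 FPKM in Torin1 and 126 ± 27 FPKM in IL-10 libraries at 3 h, and 94.2 ± 6.07 FPKM in Torin1 and 26.1 ± 2.96 FPKM in IL-10 libraries at 6 h. Its difference was 0.12 at 3 h and 1.82 at 6 h.

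Both cell cycle lists moved downward, where 11.8% of all genes were called upward and 9.10% downward. The G1/S list had 33 of 43 members called downward and 1 upward, with medians of −0.08 at 3 h and −0.31 at 6 h. The G2/M list had 36 of 38 members called higher and 0 lower at 3 h, with a median of 0.39 that was 0.18 at 6 h, and 22 members were called downward and 1 upward between the times. CDC6 stood at −0.47 at 3 h and −1.09 at 6 h, and NEK2 at 0.81 and 0.84. CDC6 averaged 24.1 and 19.5 FPKM with Torin1 at 3 h and 6 h, and 33.8 and 42.7 FPKM with IL-10. DKK1, a secreted inhibitor of Wnt signalling, changed sign, with a difference of 0.52 at 3 h and −0.49 at 6 h, both called. Autophagy genes moved upward in 13 of 38 cases and downward in 2, and p53 targets downward in 14 of 25 and upward in 1.

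**Figure D4:**
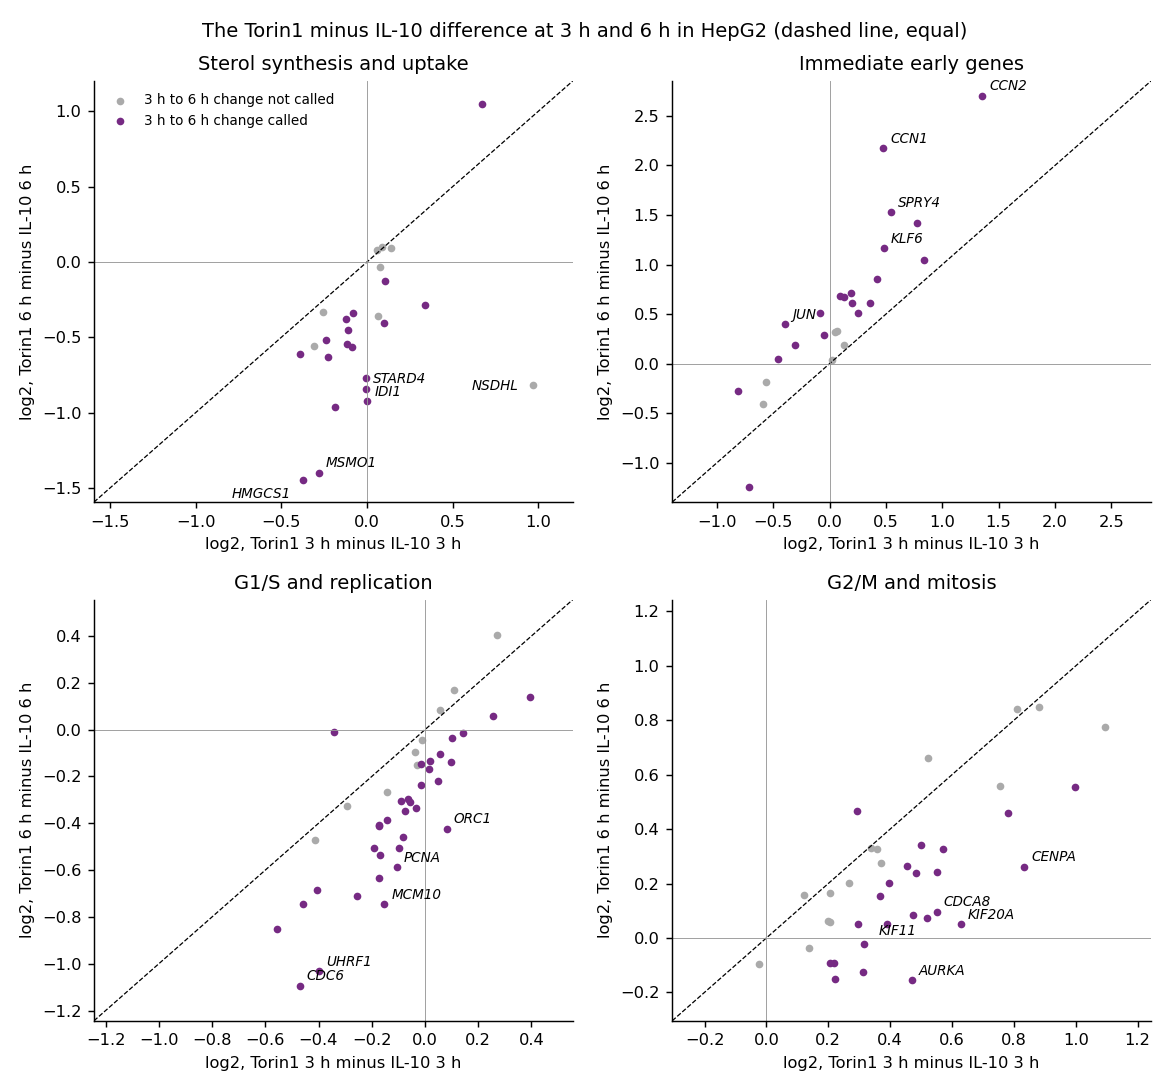
Each point is a tested member of 1 of 4 gene lists, with the log2 difference between Torin1 and IL-10 at 3 h on the x axis and at 6 h on the y axis; purple points had a called change of the difference between the times and the dashed line marks equal differences. Most sterol, G1/S and G2/M points lie below the line (17, 33 and 22 called) and most immediate early points above it (19 called).

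The same contrast in HCT116 differed from that in HepG2 for 51.3% of the genes. Of 9683 genes tested in both lines, the difference in HepG2 was called higher than that in HCT116 for 2958 (30.5%) and lower for 2011 (20.8%), with 58 (0.599%) and 31 (0.320%) by at least 2-fold. DDIT4 averaged 8.87 ± 0.965 FPKM with Torin1 and 15.8 ± 0.934 FPKM with IL-10 in HCT116 (SD, n = 3), a difference of −0.77, and HepG2 minus HCT116 was −2.34 (limma, adjusted p = 5.92e-20). Of 26 immediate early genes, 20 were called higher in HepG2 than in HCT116 and 2 lower, beside 30.5% and 20.8% of all genes, and a median of −0.001 in HCT116. CCN1 averaged 12 ± 1.87 FPKM with Torin1 and 12.3 ± 1.18 FPKM with IL-10 in HCT116, a difference of −0.04, while CCN2 was near the filter there, at 1.21 FPKM with Torin1 and 0.832 FPKM with IL-10. ERRFI1 averaged 177 ± 13.3 FPKM with Torin1 and 183 ± 13.7 FPKM with IL-10 in HCT116, so its level was high in both groups there (line difference 1.80 ± 0.08). The kinase genes PIM3 and SGK1, which rose by 1.52 and 2.03 in HepG2, stood at −0.36 and 0.01 in HCT116, SGK1 from means of only 0.788 FPKM with Torin1 and 0.775 FPKM with IL-10. CPEB4, which controls poly(A) tails in the cytoplasm, rose by 1.52 in HepG2 and stood at −0.24 in HCT116. PIM1 rose in both lines, by 2.62 in HepG2 and 1.85 in HCT116.

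Lists are read here against the 30.5% of all genes called higher and 20.8% called lower in HepG2 than in HCT116. Sterol genes were called lower in HepG2 than in HCT116 in 17 of 25 cases and higher in 2, with medians of −0.52 in HepG2 and −0.19 in HCT116 over these 25. Ribosome biogenesis genes were called higher in 34 of 54 cases and lower in 2, with medians of −0.06 in HepG2 and −0.28 in HCT116. Ribosomal protein genes were called lower in 33 of 77 cases and higher in 0, with medians of −0.13 in HepG2 and 0.06 in HCT116. FOXO targets were called higher in 6 of 19 cases, near the 30.5% of all genes, and lower in 8. Their medians were 0.87 in HepG2 and 0.52 in HCT116. Taken gene by gene, the HepG2 minus HCT116 difference of this list had a median of −0.06. IGFBP1, DEPP1 and INHBE did not pass the filter in HCT116, with means of 0.0713, 0.114 and 0.0276 FPKM with Torin1 and 0.0705, 0.0797 and 0.0172 FPKM with IL-10.

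**Figure D5:**
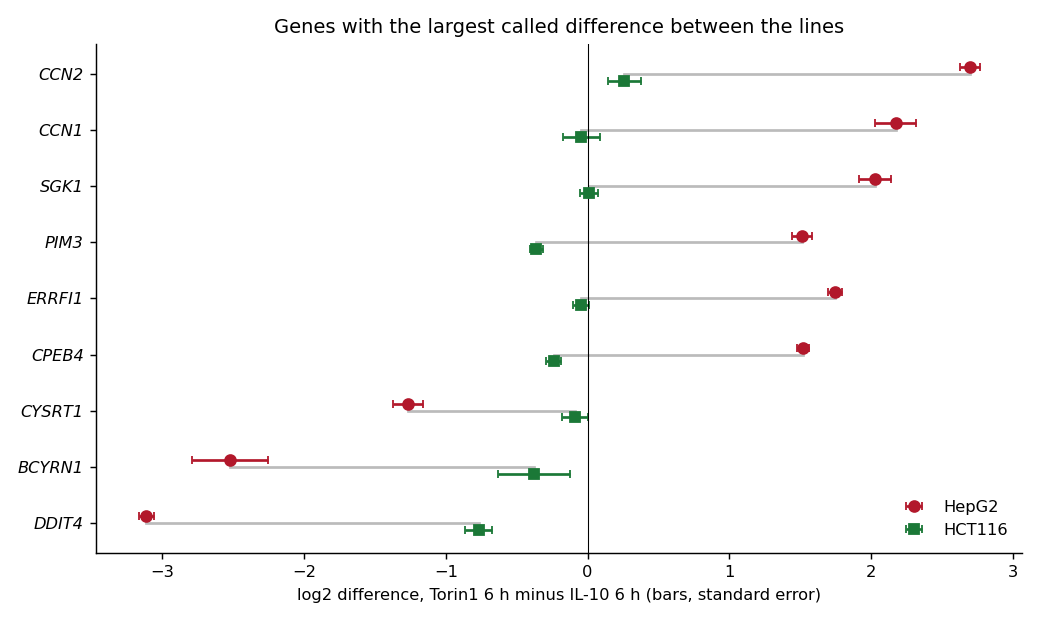
Log2 difference, Torin1 6 h minus IL-10 6 h, of 9 genes in HepG2 (red circles) and HCT116 (green squares) with standard errors as bars; genes were taken by the size of the called difference between the lines, and RN7SL1, RN7SL3 and RN7SK are not drawn. HepG2 points of CCN2, CCN1, SGK1, PIM3, ERRFI1 and CPEB4 lie between 1.52 and 2.70 while their HCT116 points lie between −0.36 and 0.26.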

How the data were processed

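Bulk RNA-seq libraries of HepG2 and HCT116 cells were analysed from a gene table of 50037 entries and 54 library columns. Its FPKM values were made by the authors with HISAT2 and StringTie on GRCh38, per the submitters' processing notes, which also name FastQC and DESeq2 and give no versions. Another 48 columns of the authors' comparisons were not used. The steps of FPKM gave whole reads for all 27798 entries above 0 in at least 10 libraries (100%, within 0.01 read), from which depth was taken.

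The test was limma 3.58.1 in R 4.3.3 (trended empirical Bayes) on log2(FPKM + 1), with 1 mean per group over all 27 HepG2 libraries, for genes at 1 FPKM or more in at least 3 of them, and Benjamini-Hochberg adjustment over 11280 genes. The change between times and the difference between lines were contrasts of 2 differences, the second over all 54 libraries and 9683 genes. Called means an adjusted p under 0.05. Python 3.11.15 drew the figures. The code was tested on simulated data.

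Genes named are the 4 markers, the 12 largest called rises and falls with a mean of at least 5 FPKM, separate groups and no second entry, the 4 largest called members per list, all tested TIMP, MMP and EGF family genes, and the 6 largest each way for the change between times and between lines, or 4 for IL-10 against NC. NC levels are means of 3. The markers, the 38 gene lists (1021 genes) and the comparison were chosen with earlier results of these data known. Genes among the 9389 entries with an alternate copy are counted in lists. Libraries of the same group differed by more than counting noise (chi-square over its degrees of freedom, 5.3 to 8.26). Promoter windows come from the RefSeq table on GRCh38.p14, which held 113 of 158 named genes, and gene positions from RefSeq on the same build. The alternatives were other pseudocounts, filters, scalings and fits, voom on the recovered reads, and leaving out each library. Values of 2 list members are not reported here.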

Additional observations from a re-analysis of the deposited data

Results flagged for a closer look

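Within HepG2, the difference between Torin1 and IL-10 changed between 3 h and 6 h for the genes below, by the limma contrast of the 2 differences. It moved upward by 1.57 for DEPP1, 1.35 for CCN2, 1.27 for EDN1, 1.70 for CCN1, 1.49 for SLC16A6 and 1.70 for ANKRD1 on the log2 scale. It moved downward for INHBE (−0.998), HMGCS1 (−1.07), MSMO1 (−1.12), HMOX1 (−0.92), DKK1 (−1.01) and IDI1 (−0.93). EDN1 averaged 7.19 and 8.86 FPKM with Torin1 at 3 h and 6 h, and 2.57 and 0.788 FPKM with IL-10. HMOX1, the haem oxygenase that answers oxidant stress, had 6.62, 6.84 and 6.65 FPKM with Torin1, against 18.7, 16.8 and 16.9 FPKM with IL-10 at 6 h. The HMOX1 difference was −1.26 against IL-10 and −0.96 against NC, and the gene was 0.30 higher with IL-10 than in NC.

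Between the lines, the difference at 6 h was higher in HepG2 than in HCT116 for CCN2 (2.44), CCN1 (2.22), SGK1 (2.02), PIM3 (1.88), ERRFI1 (1.80) and CPEB4 (1.76), by the limma contrast of HepG2 minus HCT116. It was lower in HepG2 for DDIT4 (−2.34), BCYRN1 (−2.14), CYSRT1 (−1.18), RN7SL1 (−2.80), RN7SL3 (−1.72) and RN7SK (−1.58). RN7SL1, RN7SL3 and RN7SK are short structural RNAs, and RN7SL1 varied widely in HCT116, at 258 ± 131 FPKM with Torin1 and 71.6 ± 57.3 FPKM with IL-10 (SD, n = 3).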

How the results depend on the processing

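The counts of genes higher and lower at 6 h stayed within 1.5 times under every alternative run, and without 1 library at a time they were 2941 to 3128 and 3030 to 3255. At least 2-fold, 108 higher and 39 lower became 212 and 100 with a pseudocount of 0.1 and 236 and 105 with voom, and 103 to 118 and 34 to 53 without 1 library. For IL-10 against NC, 212 higher became 132 with no filter and 57 to 160 without 1 library, and 1105 lower became 679 at the same FPKM total and 499 to 885 without 1 library. The change between times gave 832 upward in place of 1336 at the same FPKM total, and 1085 to 1395 upward and 819 to 1067 downward without 1 library. Lower in HepG2 than in HCT116, 2011 became 3118 with no filter, and without 1 library the counts were 2781 to 2940 higher and 1818 to 1991 lower. Torin1 against NC, whose alternatives were added after seeing the data, gave 2667 to 2807 and 3446 to 3671 without 1 library. For Torin1 against IL-10 at 6 h, 229 list members were called higher and 324 lower. Without 1 library these counts were 210 to 226 and 293 to 323. Of 2514 refits of 158 gene values, 2469 kept direction and call, 34 lost the call, 5 gained it and 6 changed sign. All 6 were with NC in place of IL-10: VARS1, which has a second entry (0.000659), APOA5 (0.000352), RN7SK (0.20), MIR7111 (0.52), ACTA1 (−0.26) and TAGLN (−0.56). VARS1, APOA5, RN7SK and ACTA1 did not pass against NC, and MIR7111 and TAGLN did not pass against IL-10. No called difference was thus called in the other direction. The cause was not tested. With the replicate block, 3269 genes were higher and 3454 lower. Same-numbered libraries correlated at −0.000209, 0.0676 and 0.0923. Torin1 replicates 2 and 3 correlated best with the IL-10 library of the same number, and Torin1 replicate 1 with IL-10 replicate 2 (0.0392). Such small correlations cannot settle whether the libraries were paired, and the labels do not say that they were. Depth limits genes under 1 FPKM, where the pseudocount sets the fold.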

Other observations

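A few genes stood apart from NC in the IL-10 libraries themselves. THBS1, the matrix protein thrombospondin and a YAP target, had 90.1, 94.7 and 95.9 FPKM with Torin1, against 47.7, 47.5 and 43.2 FPKM with IL-10, and it was 0.64 lower on the log2 scale with IL-10 than in NC. ACTA1 and TAGLN, actin cytoskeleton genes, were also called lower with IL-10 than in NC (−0.73 and −0.59). Both calls were lost without IL-10 replicate 3 (−0.69 and −0.52), and that of TAGLN without NC replicate 2 (−0.52). RN7SK, the RNA that holds the elongation kinase P-TEFb inactive, was 1.23 higher with IL-10 than in NC, and its difference between Torin1 and NC was 0.20 (limma adjusted p = 0.522). At 6 h the BCYRN1 mean was 30.3 FPKM with IL-6 and 10.2 FPKM with TNF-α.

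CYP1A1, the enzyme that the aryl hydrocarbon receptor induces, had 77.6, 86.9 and 84.1 FPKM with Torin1, against 52.2, 53.8 and 49.8 FPKM with IL-10. The liver transcription factor gene PROX1 rose by 0.77, while CEBPA and FOXA1 fell by 0.54 and 0.29, and the thyroxine carrier gene TTR rose by 0.33.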
